A study of Homo sapiens with 2 samples.

Results

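Described here are 8 genes for surface or secreted proteins through which a tissue cell meets a leukocyte: the immune checkpoint ligands CD274 (PD-L1), PDCD1LG2 (PD-L2), LGALS9 (galectin-9), TNFRSF14 (HVEM) and CD47, and the adhesion ligands ICAM1, VCAM1 and CD58 (LFA-3). They were chosen by symbol, and all 8 were found among the 36601 genes of the feature files. The samples are colon organoids made from the human iPS cell line 1383D6, an established pluripotent line. The untreated culture is called CNT, and the culture that received TNF-α, IFN-γ and IL-1β together for 8 days is called 3CK. No dose of a cytokine is stated in the labels. Both cultures went through the same differentiation, which the labels describe with Activin A, then FGF2, then embedding in Matrigel with EGF, Forskolin, PD98059 and 5-Aza-2'-Deoxycytidine among the additions. The last of these is an inhibitor of DNA methylation, and it was a part of the medium of the controls too. Each group is 1 single-cell library, and all cells come from 1 line, so there is no replicate, no test was made, and every interval below is a 95% interval for counting error only.

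The value given for a gene is its sum of unique molecular identifiers (UMIs, 1 per captured transcript end) over a set of cells, or that sum as counts per 1e6 UMIs of the same cells (CPM). After filtering, 2487 CNT barcodes with 101831571 UMIs and 1398 3CK barcodes with 91860414 UMIs were kept, and the libraries shared 0 barcodes. Cells with at least 2 UMIs of EPCAM per 10000 are called epithelial, and cells with at least 5 UMIs of COL1A1, COL1A2 and COL3A1 per 10000 and under 1 of EPCAM are called mesenchymal. Epithelial cells numbered 1660 in CNT and 1016 in 3CK, mesenchymal cells 574 and 124, and 253 and 258 barcodes met neither rule. Median depth per epithelial cell was 37785 UMIs untreated and 72198 treated, and per mesenchymal cell 23450 and 65363. Markers that the rule did not use separated the classes only in part. The fibroblast proteoglycan gene DCN stood at 51.2 CPM in epithelial and 1210 CPM in mesenchymal cells of CNT, and the epithelial cadherin gene CDH1 at 138 and 14.9 CPM, but the keratin gene KRT8 stood at 3110 and 3217 CPM. The epithelial class also carried liver-type transcripts, with a summed level of 6 hepatic markers of 97702 CPM in CNT and 32109 CPM in 3CK. Of cell types that carry several of these ligands, endothelium was nearly undetected by its cadherin gene CDH5, with 2 to 30 UMIs in the epithelial and mesenchymal cells of either library, and leukocytes by PTPRC, with 6 to 33 UMIs. Other listed markers of those types were higher, since the summed level of 8 endothelial markers was 22.0 to 63.8 CPM and that of 10 leukocyte markers 69.9 to 212 CPM, CD3E being at 0 in 3CK mesenchymal cells. Their part in the values below was not tested.

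Checkpoint ligands bind inhibitory receptors on immune cells. PD-L1 and PD-L2 engage PD-1 on T cells, galectin-9 is a secreted lectin with TIM-3 among its reported partners, HVEM is a TNF receptor family member that binds BTLA, CD160 and LIGHT, and CD47 gives phagocytes a signal not to engulf through SIRPA. ICAM1 is the ligand of the leukocyte integrin LFA-1, VCAM1 that of the integrin VLA-4, and CD58 binds CD2 on T and NK cells. In gut inflammation these genes are of interest because IFN-γ, acting in part through IRF1, is known to induce PD-L1, and TNF and IL-1, acting through NF-κB, are known to induce ICAM1 and VCAM1.

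In the GENCODE annotation, version 44, on GRCh38, which is also the build named in the submitters' processing notes, CD274 (ENSG00000120217) lies on the forward strand at chr9:5450503-5470566 and PDCD1LG2 (ENSG00000197646) on the same strand at chr9:5510531-5571282, with 39965 bases between them. LGALS9 (ENSG00000168961) lies at chr17:27629798-27649560, TNFRSF14 (ENSG00000157873) at chr1:2555639-2565382, ICAM1 (ENSG00000090339) at chr19:10271093-10286615 and VCAM1 (ENSG00000162692) at chr1:100719742-100739045, all on the forward strand. CD47 (ENSG00000196776) at chr3:108043091-108091862 and CD58 (ENSG00000116815) at chr1:116514534-116571039 lie on the reverse strand. RefSeq promoters (GRCh38.p14) were found for 7 of the 8 genes, PDCD1LG2 being the exception. The 250 bases before each RefSeq start, which can differ from the GENCODE start, were searched on both strands. Those of CD274, ICAM1 and VCAM1 are shown because, over all kept cells, CD274 and ICAM1 had the largest differences between the libraries among the 8 genes, while the pooled counts of VCAM1 did not differ by 2-fold. They run from 250 bases before the RefSeq start to the base before the first GENCODE exon, on the forward strand, at chr9:5450292-5450502, chr19:10270870-10271092 and chr1:100719492-100719741, and capitals mark the motif matches described next.
CD274: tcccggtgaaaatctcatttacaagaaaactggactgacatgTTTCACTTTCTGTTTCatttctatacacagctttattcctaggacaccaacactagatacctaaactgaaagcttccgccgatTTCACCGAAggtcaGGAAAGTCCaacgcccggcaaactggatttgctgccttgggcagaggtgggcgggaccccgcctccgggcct
ICAM1: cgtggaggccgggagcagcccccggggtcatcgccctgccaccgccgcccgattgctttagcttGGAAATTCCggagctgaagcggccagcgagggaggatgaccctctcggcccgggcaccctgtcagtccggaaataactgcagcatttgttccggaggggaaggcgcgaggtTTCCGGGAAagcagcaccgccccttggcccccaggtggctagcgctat
VCAM1: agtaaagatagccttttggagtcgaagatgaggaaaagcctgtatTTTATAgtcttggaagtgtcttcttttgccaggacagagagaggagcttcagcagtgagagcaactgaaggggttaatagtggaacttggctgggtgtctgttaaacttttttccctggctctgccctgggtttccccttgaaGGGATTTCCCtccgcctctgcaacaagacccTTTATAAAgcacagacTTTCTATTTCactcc

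The core of the interferon-stimulated response element (ISRE) matched CD274 at 2 overlapping places, 208 to 199 and 202 to 193 bases before the start, and VCAM1 at 1 place, 15 to 6 bases before it. It occurs in 3.02% of the 35116 promoter windows of the same length. The letters TTCNNNGAA, the interferon-γ-activated site (GAS), matched CD274 125 to 117 bases and ICAM1 75 to 67 bases before the start (6.57% of windows). The letters GGANNTTCC, a form bound by the NF-κB subunit RELA, matched ICAM1 186 to 178 bases and CD274 111 to 103 bases before the start (3.84% of windows). The NF-κB consensus matched VCAM1 62 to 53 bases before the start and TNFRSF14 at 3 overlapping places between 86 and 75 bases before it (9.96% of windows). The TATA box letters TATAAA were found in ICAM1, 30 to 25 bases before the start and beyond the end of the stretch shown, and in VCAM1 at 3 places, 2 of them overlapping at 31 to 24 bases (10.7% of windows). The windows of LGALS9, CD47 and CD58 held none of these letters. All distances are from the RefSeq start. The windows of LGALS9 (chr17:27630938-27631187), TNFRSF14 (chr1:2556121-2556370) and CD47 (chr3:108091032-108091281) lay wholly inside the GENCODE spans given above. For LGALS9, TNFRSF14 and CD47 the bases before the GENCODE start were thus not searched. A match is a description of the letters and says nothing of binding in these cells.

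Over all kept cells, 6 of the 8 genes were at least 2-fold higher in 3CK than in CNT and none was 2-fold lower, although VCAM1 was with equal weight for each cell. The share of all genes tested (those with at least 1 CPM in either library) was 6.96% higher and 11.3% lower by that rule, over 17523 genes. The 8 genes had a median log2 ratio (3CK over CNT) of 3.15, against -0.05 over all genes tested. The members were chosen with earlier results of these data known, so these counts describe the genes and support nothing on their own. Median-of-ratios and TMM scaling moved every ratio of this comparison up by 0.08 to 0.09.

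Of the PD-1 ligands, CD274 was nearly undetected in the untreated organoids and PDCD1LG2 was low. CD274 had 46 UMIs in CNT, 0.452 CPM (0.331 to 0.603), and 3296 after treatment, 35.9 CPM (34.7 to 37.1), for a log2 ratio of 6.31 (5.89 to 6.76), or 79.4-fold. PDCD1LG2 had 235 and 2133 UMIs, 2.31 and 23.2 CPM, a log2 ratio of 3.33 (3.14 to 3.53). Both were thus far above their untreated level, and the neighbouring genes differed in the size of the ratio, with intervals that did not overlap. LGALS9 went from 237 to 5396 UMIs, 2.33 to 58.7 CPM, a log2 ratio of 4.66 (4.47 to 4.85). Its near-identical copies LGALS9B and LGALS9C had 3 and 11 UMIs in CNT against 35 and 13 in 3CK, and how reads shared between the copies were counted is not known, so the level of LGALS9 is uncertain. TNFRSF14 had 268 and 1899 UMIs, 2.63 and 20.7 CPM, a log2 ratio of 2.97 (2.79 to 3.16). Its antisense gene TNFRSF14-AS1 had 30 and 176 UMIs, and the use of strand in counting is not stated. CD47 was already present without treatment, at 76.4 CPM, and stood at 237 CPM with it, a log2 ratio of 1.63 (1.60 to 1.67), the smallest among the 6 genes past 2-fold.

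The 3 adhesion ligands did not move together. ICAM1 went from 1600 to 65511 UMIs, 15.7 to 713 CPM, a log2 ratio of 5.50 (5.43 to 5.58), or 45.4-fold. VCAM1 had 451 and 342 UMIs, 4.43 and 3.72 CPM, a log2 ratio of -0.25 (-0.46 to -0.04), which was -1.46 with equal weight for each cell. CD58 had 2389 and 2089 UMIs, 23.5 and 22.7 CPM, and its log2 ratio of -0.04 (-0.13 to 0.04) had an interval that included 0. The pooled value of VCAM1 joins classes of unequal size. Mesenchymal cells held 69.2% of its UMIs in CNT and 83.9% in 3CK, while they made up 23.1% of kept cells in CNT (exact binomial interval 21.4 to 24.8) and 8.87% in 3CK (7.43 to 10.5). Collagen transcripts define that class, and within it the collagen genes COL5A1 (401 and 166 CPM) and COL6A3 (213 and 138 CPM), not used in the rule, were lower in 3CK, so fewer mesenchymal cells and less collagen RNA per cell cannot be told apart.

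**Figure D1:**
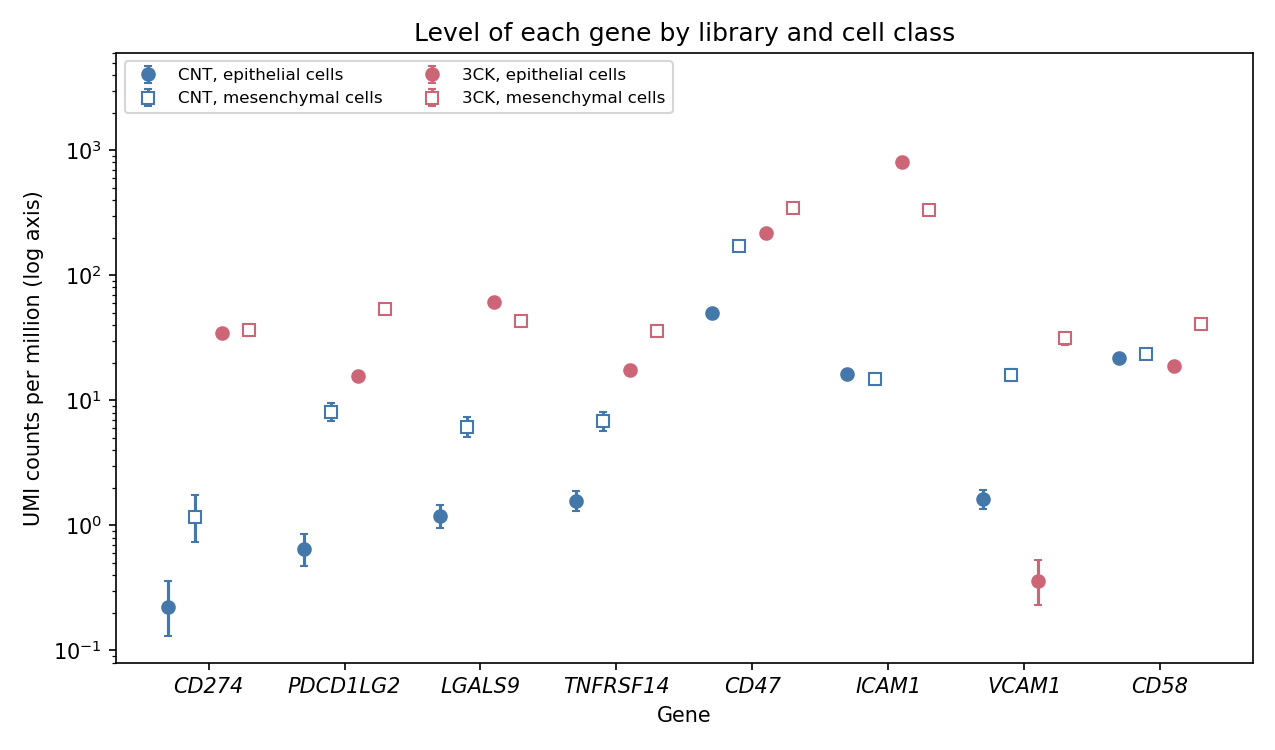
Level of each gene in CPM (log axis) in epithelial (filled circles) and mesenchymal cells (open squares) of CNT (blue) and 3CK (red), with exact Poisson intervals that cover counting error only. In epithelial cells CD274 stood at 0.223 CPM untreated and 34.4 CPM treated, whereas VCAM1 stood at 1.61 and 0.357 CPM.

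Within epithelial cells the same 6 genes were at least 2-fold higher in 3CK, against 8.48% of the 16809 genes tested, and VCAM1 was the single member at least 2-fold lower, against 12.1%. CD274 went from 17 to 2411 UMIs, 0.223 to 34.4 CPM, a log2 ratio of 7.27 (6.59 to 8.05). LGALS9 had 90 and 4273 UMIs, 1.18 and 60.95 CPM, a log2 ratio of 5.69 (5.39 to 6.01). ICAM1 stood at 16.3 and 799.6 CPM, a log2 ratio of 5.62 (5.54 to 5.70). PDCD1LG2 stood at 0.643 and 15.6 CPM (4.60, 4.19 to 5.04) and TNFRSF14 at 1.58 and 17.4 CPM (3.47, 3.20 to 3.75). CD47 stood at 50.03 and 219 CPM (2.13, 2.08 to 2.18). In this class CD58 stood at 21.99 and 18.9 CPM (-0.22, -0.32 to -0.11), a difference that changed sign, to 0.14, when each cell was given equal weight.

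Within mesenchymal cells 5 genes were at least 2-fold higher in 3CK, against 6.05% of the 17353 genes tested, and none was 2-fold lower, against 16.7%. CD274 went from 23 to 335 UMIs, 1.17 and 36.7 CPM, a log2 ratio of 4.97 (4.36 to 5.65). ICAM1 stood at 14.9 and 334 CPM (4.49, 4.31 to 4.67), LGALS9 at 6.16 and 43.2 CPM (2.81, 2.51 to 3.12) and PDCD1LG2 at 8.09 and 53.3 CPM (2.72, 2.46 to 2.99). TNFRSF14 stood at 6.82 and 35.98 CPM (2.40, 2.11 to 2.70). CD47 lay at the boundary, with 172 and 344 CPM and a log2 ratio of 0.997 (0.93 to 1.07), and so did VCAM1, described further on. Both passed 2-fold with TMM factors. CD58 was higher here, with 23.5 and 40.5 CPM (0.78, 0.58 to 0.98). With median-of-ratios scaling the ratios of this class were larger by 0.20.

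For each of the 6 genes past 2-fold in epithelial cells, the log2 ratio was smaller in mesenchymal cells, and the counting intervals of the classes did not overlap. The untreated mesenchymal level was the higher of the pair for 5 of them, ICAM1 being the exception. The order of the classes was not the same under every weighting for CD274: with each cell given equal weight its log2 ratio was 5.65 in epithelial and 6.28 in mesenchymal cells. For LGALS9 it stayed apart, at 5.55 and 2.87, and for ICAM1 at 6.07 and 4.05, but PDCD1LG2 (3.50 and 3.22) and CD47 (1.68 and 1.57) came close between the classes.

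**Figure D2:**
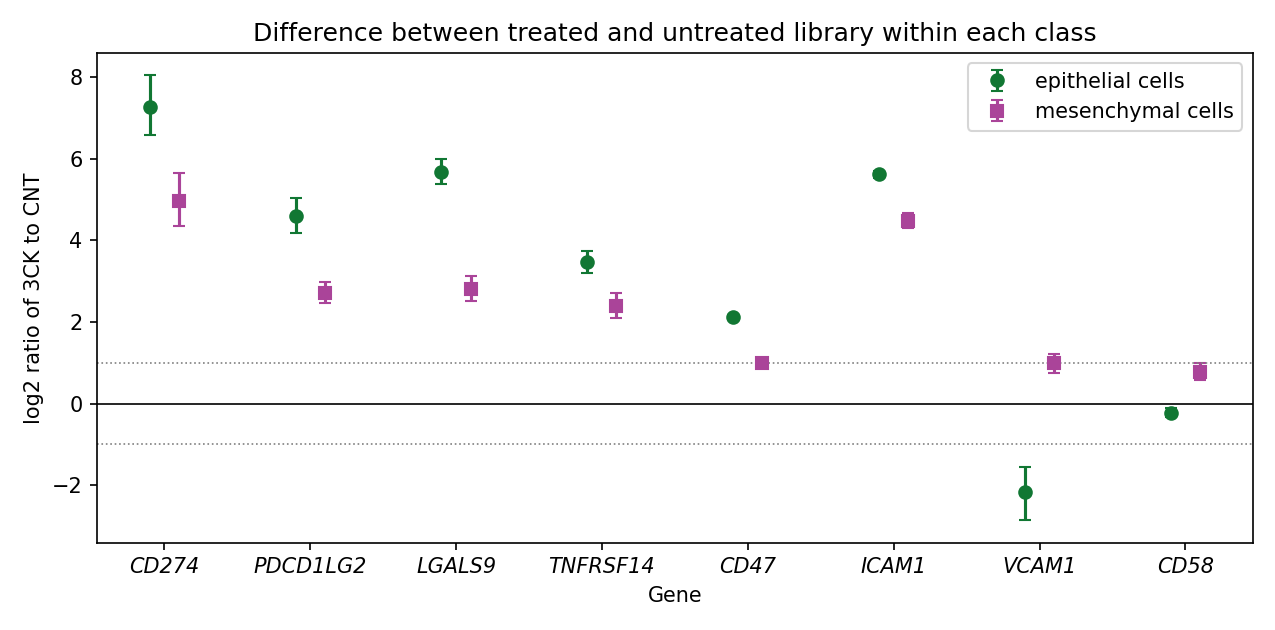
Log2 ratio of 3CK to CNT for each gene within epithelial (circles) and mesenchymal cells (squares), with intervals from the exact binomial share of both counts; dotted lines mark a 2-fold difference. CD274, PDCD1LG2, LGALS9, TNFRSF14, CD47 and ICAM1 lie above 0 in both classes, VCAM1 at -2.18 in epithelial and 0.99 in mesenchymal cells.

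VCAM1 thus differed in sign between the classes. Epithelial cells went from 123 to 25 UMIs, 1.61 and 0.357 CPM, a log2 ratio of -2.18 (-2.86 to -1.55), which ranged from -2.93 to -1.64 over the settings tried. Mesenchymal cells had 312 and 287, 15.9 and 31.5 CPM, a log2 ratio of 0.99 (0.75 to 1.22). The mesenchymal value rests on few cells: a single 3CK cell held 90 of the 287 UMIs (31.4%), and 5 cells held 56.1% of them, against 34.6% in CNT. Without the cell with the most VCAM1 UMIs in each library the log2 ratio was 0.63 (0.36 to 0.90). With equal weight for each cell it was -0.17, so its direction depends on the weighting. That was the 1 sign change among 9 alternatives. Equal weight counts shallow barcodes as much as deep ones. Under 10000 UMIs were 263 of 574 mesenchymal barcodes in CNT and 18 of 124 in 3CK, and the part of this imbalance was not tested. In epithelial cells VCAM1 was lower in 3CK together with mesenchymal transcripts. LUM, a proteoglycan gene of fibroblasts, was at 129.7 and 26.7 CPM in the epithelial cells of CNT and 3CK, and VCAM1 had 12.5 UMIs per 1000 UMIs of LUM in CNT epithelial cells (10.3 to 14.9) and 12.4 in CNT mesenchymal cells (11.1 to 13.9). In 3CK these were 13.4 (8.62 to 19.8) and 58.3 (51.6 to 65.7), LUM itself being lower in treated (540 CPM) than in untreated (1279 CPM) mesenchymal cells. Against DCN, the order was the opposite, with 31.5 in epithelial and 13.1 in mesenchymal cells of CNT and 37.3 (23.9 to 55.5) and 26.1 (23.1 to 29.3) in 3CK, where these intervals overlapped. Against COL6A3 the ratio was 240 and 74.6 in CNT, and 179 (112 to 275) and 229 (200 to 260), again with overlapping intervals, in 3CK. No single ratio held over these mesenchymal genes, and the part of free RNA in the epithelial value was not tested.

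The classes were also set against each other within each library. In CNT, mesenchymal cells were at least 2-fold above epithelial cells for 6 genes, against 26.1% of the 18033 genes tested, and lower for none, against 15.1%. The log2 ratios of mesenchymal to epithelial cells were 3.65 for PDCD1LG2 (3.18 to 4.15), 3.30 for VCAM1 (2.99 to 3.61), 2.39 for CD274 (1.42 to 3.39), 2.38 for LGALS9, 2.11 for TNFRSF14 and 1.78 for CD47. The value of CD274 rests on 23 and 17 UMIs and turned to -0.85 with equal weight for each cell. That weighting also took CD47 below 2-fold, to 0.76, and lowered PDCD1LG2 to 2.00 and TNFRSF14 to 1.38. With stricter classes (epithelial with at least 5 UMIs of EPCAM and under 5 of the collagens per 10000, mesenchymal with at least 20 of the collagens and under 1 of EPCAM) PDCD1LG2 stood at 4.73 and TNFRSF14 at 2.85. For ICAM1 (-0.13, -0.32 to 0.05) and CD58 (0.10, -0.06 to 0.25) the interval included 0, although ICAM1 stood at 1.00 with equal weight for each cell. TMM factors lowered all ratios of this comparison by 0.39.

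In 3CK the order was another. Mesenchymal cells were at least 2-fold higher for 4 genes, against 19.0% of the 17177 genes tested, and at least 2-fold lower for ICAM1, against 16.8%. VCAM1 had the largest ratio, 6.46 (5.87 to 7.12), whose size depended on the setting, at 4.21 with equal weight for each cell and 8.16 with the stricter classes. It was followed by PDCD1LG2 at 1.77 (1.62 to 1.93), CD58 at 1.10 (0.93 to 1.27) and TNFRSF14 at 1.04 (0.86 to 1.22). With TMM factors, which lowered these ratios by 0.18, or with median-of-ratios factors, 2 genes were left past 2-fold, and with equal weight for each cell CD58 stood at 0.47. CD47 stood at 0.65 (0.60 to 0.71). CD274 no longer differed beyond counting error, at 34.4 CPM in epithelial and 36.7 CPM in mesenchymal cells (0.10, -0.07 to 0.26). LGALS9, at 60.95 and 43.2 CPM (-0.50, -0.65 to -0.35), and ICAM1, at 799.6 and 334 CPM (-1.26, -1.31 to -1.21), were higher in epithelial cells.

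The share of cells with a UMI was compared after each cell had been thinned to the same depth. At 20000 UMIs per cell, which left 948 CNT and 689 3CK epithelial cells and 300 and 103 mesenchymal cells and left out 712, 327, 274 and 21 shallower ones, ICAM1 was seen in 160 of 948 CNT epithelial cells (16.9%, 14.5 to 19.4) and in 670 of 689 3CK epithelial cells (97.2%, 95.7 to 98.3). In mesenchymal cells its share was 18.7% (14.4 to 23.5) and 90.3% (82.9 to 95.2). ICAM1 was thus found in nearly every treated cell of both classes at this depth. In CNT its level was 16.3 CPM in epithelial and 14.9 CPM in mesenchymal cells, and the part of free RNA in its untreated shares was not tested. CD274 was seen in 3 of 948 CNT epithelial cells (0.316%, 0.065 to 0.922) and in 295 of 689 in 3CK (42.8%, 39.1 to 46.6), and in 2.67% and 36.9% of mesenchymal cells. CD47 went from 46.0% to 86.4% of epithelial cells and from 83.7% to 96.1% of mesenchymal cells. LGALS9 was seen in 2.004% and 54.9% of epithelial and 13.7% and 34.95% of mesenchymal cells.

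PDCD1LG2 showed the opposite order of classes to LGALS9 in 3CK, with a UMI in 17.7% of epithelial cells (14.9 to 20.8) and 52.4% of mesenchymal cells (42.4 to 62.4), from 0.949% and 8.67% in CNT. TNFRSF14 was seen in 2.85% and 27.0% of epithelial and 11.7% and 40.8% of mesenchymal cells. CD58 was seen in 34.2% (31.2 to 37.3) of CNT and 31.9% (28.5 to 35.6) of 3CK epithelial cells, and in 37.7% (32.2 to 43.4) and 51.5% (41.4 to 61.4) of mesenchymal cells. VCAM1 was seen in 2.43% and 0.581% of epithelial cells and in 13.0% (9.41 to 17.3) and 25.2% (17.2 to 34.8) of mesenchymal cells. As a measure of the background, genes of the other class were read in the same cells. The fibroblast gene DCN was seen in 17.2% of CNT and 6.10% of 3CK epithelial cells, LUM in 49.3% and 22.2%, and the epithelial gene CDH1 in 11.3% and 5.83% of mesenchymal cells. In CNT epithelial cells all 8 members lay below LUM, and all but CD47 and CD58 lay below DCN. In CNT mesenchymal cells, however, LUM (1279 CPM) and DCN (1210 CPM) were far above every member, CD47 being the highest at 172 CPM. The shares of LUM and DCN thus set no limit for free RNA of a member, and its part in each share was not tested. In 3CK epithelial cells VCAM1 lay below DCN and PDCD1LG2 below LUM, which were again the more abundant genes in mesenchymal cells. In CNT mesenchymal cells CD274 and PDCD1LG2 lay below CDH1. In CNT epithelial cells, though, CDH1 stood at 138 CPM, against 0.223 CPM for CD274 and 0.643 CPM for PDCD1LG2, so its share sets no limit for them. With thinning to 5000 UMIs the shares were lower. CD274 was seen in 0 of 1062 CNT epithelial cells, with an interval up to 0.347%, and in 14.2% of 776 in 3CK. ICAM1 was seen in 5.37% and 84.3%. Without thinning, CD274 had a UMI in 0.904% and 56.3% of epithelial cells and ICAM1 in 21.3% and 87.9%.

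**Figure D3:**
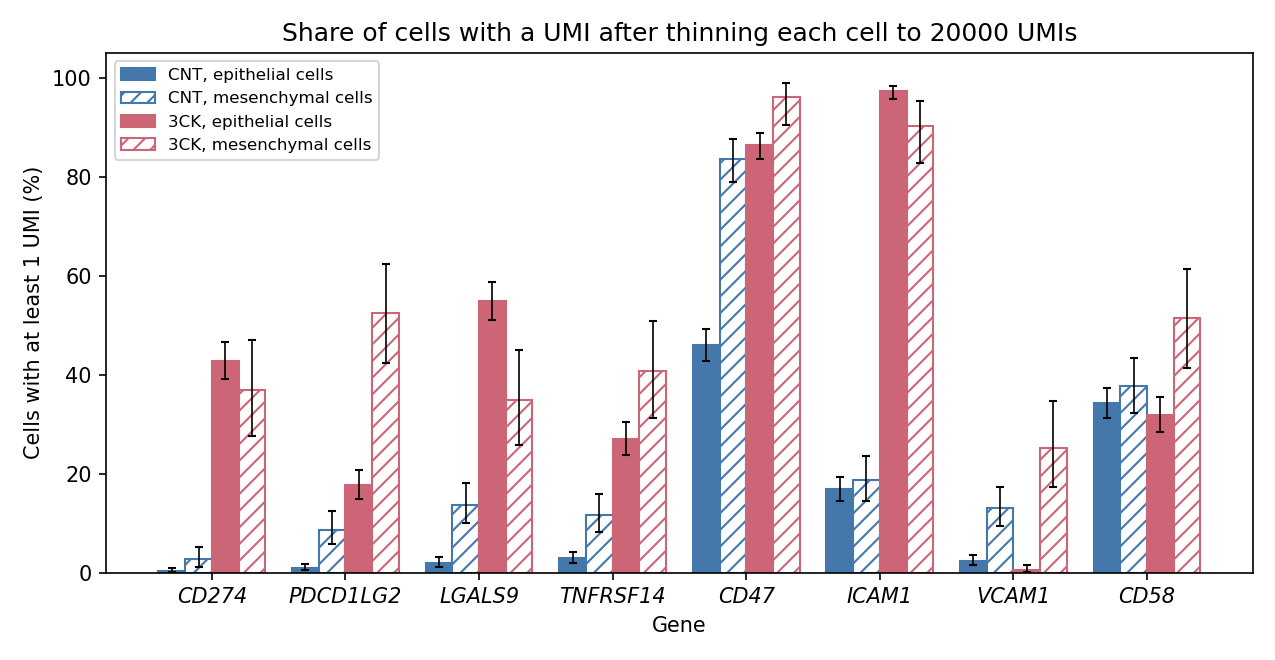
Percentage of cells with at least 1 UMI of each gene after thinning to 20000 UMIs per cell, in epithelial (solid) and mesenchymal cells (hatched) of CNT (blue) and 3CK (red), with exact binomial intervals. ICAM1 reached 97.2% of 3CK epithelial cells. VCAM1 was seen in 2.43% of CNT and 0.581% of 3CK epithelial cells, and in 25.2% of 3CK mesenchymal cells.

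Several ligands were seen in the same treated cell. At 20000 UMIs per cell, the median epithelial cell had a UMI of 1 of the 8 genes in CNT and of 4 in 3CK, and the median mesenchymal cell of 2 and 4. Among 3CK epithelial cells, PDCD1LG2 was seen in 26.4% (21.5 to 31.9) of the 295 cells with a CD274 UMI and in 11.2% (8.23 to 14.7) of the 394 without. The corresponding shares in mesenchymal cells were 68.4% (51.3 to 82.5) of 38 and 43.1% (30.8 to 55.96) of 65, with overlapping intervals. At 5000 UMIs per cell the epithelial shares were 10.0% and 5.86%, and their intervals overlapped. TNFRSF14 did not follow CD274, with 26.8% (21.8 to 32.2) and 27.2% (22.8 to 31.8) in epithelial cells. It was seen more often where LGALS9 was, in 31.7% (27.1 to 36.7) against 21.2% (16.8 to 26.2), and LGALS9 itself was seen in 58.0% of the 595 cells with a CD47 UMI and 35.1% of the 94 without. These cells come from 1 library, and the shares are a description of it.

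Treated epithelial cells were also divided by whether they had a UMI of CXCL10, an interferon-induced chemokine, at the same depth. All members but VCAM1 and CD58 were higher in the 533 cells with it than in the 156 without. PDCD1LG2 stood at 18.0 CPM (15.6 to 20.7) against 4.81 CPM (2.69 to 7.93), CD274 at 42.0 against 24.7 CPM, LGALS9 at 69.98 against 34.6 CPM, CD47 at 233 against 125 CPM and ICAM1 at 887 against 530 CPM. ICAM1 was thus high in cells without CXCL10 as well, with a UMI in 92.9% of them. By LCN2, an antimicrobial protein gene, 343 cells with a UMI were above 346 without in CD47, at 256 CPM (244 to 268) and 162 CPM (153 to 172), in ICAM1, at 896.5 (874 to 919) and 716 CPM (697 to 737), and in LGALS9, at 72.4 (66.2 to 79.1) and 51.6 CPM (46.4 to 57.2), whereas CD274 did not differ beyond counting error, at 39.7 (35.1 to 44.7) and 36.6 CPM (32.2 to 41.4). In 3CK mesenchymal cells divided by IL1B, 42 with and 61 without a UMI, the intervals of all 8 genes overlapped, CD274 being at 52.4 (38.1 to 70.3) and 32.8 CPM (23.4 to 44.6).

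To see how the levels varied within the classes, cells with at least 10000 UMIs were sorted into ranges of marker transcripts. These are ranges, not cell types, and 11 held at least 20 cells and 200000 UMIs. Cells rich in chromogranin transcripts (4 in CNT, 2 in 3CK), cycling epithelial cells (19 and 18) and cycling mesenchymal cells of 3CK (18) were too few. Cells with FABP2 and APOA4, genes of absorptive enterocytes, were set apart first. Among the other treated epithelial cells, those with under 20 UMIs of TTR per 10000 (TTR encodes transthyretin, a protein of liver and fetal endoderm) had the highest CD274, at 55.2 CPM (50.1 to 60.8), and those with at least 200 the lowest, at 21.3 CPM (18.9 to 23.9). ICAM1 followed the same order, at 1036 and 686 CPM, as did PDCD1LG2, at 31.5 and 9.23 CPM, and CD47, at 288 and 180 CPM. The cells with FABP2 and APOA4 lay between them, at 32.6 CPM for CD274 and 828 CPM for ICAM1. In CNT the same TTR-low range was the highest epithelial range for 6 of the genes, VCAM1 and CD58 being the exceptions, with TNFRSF14 at 5.80 CPM (17 UMIs), PDCD1LG2 at 4.43 CPM (13 UMIs), ICAM1 at 30.3 CPM and CD47 at 105 CPM, but it held 38 cells.

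ICAM1 was higher in 3CK within every range found in both libraries, with log2 ratios from 4.45 in non-cycling mesenchymal cells to 5.97 in cells with 20 to 200 UMIs of TTR per 10000. CD274 ranged from 4.54 to 7.38, with 4 to 22 UMIs in CNT behind each value, leaving aside the range with 0 UMIs in CNT, where 820 UMIs in 3CK made it at least 6.38 against a floor of 3 UMIs. CD58 was lower in 3CK in 3 epithelial ranges, with log2 ratios of -0.44 to -0.35, and at 0.41 in the TTR-low range, with an interval from just below 0 to 0.83. VCAM1 in epithelial ranges rested on 0 to 56 UMIs in CNT and 2 to 12 in 3CK.

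**Figure D4:**
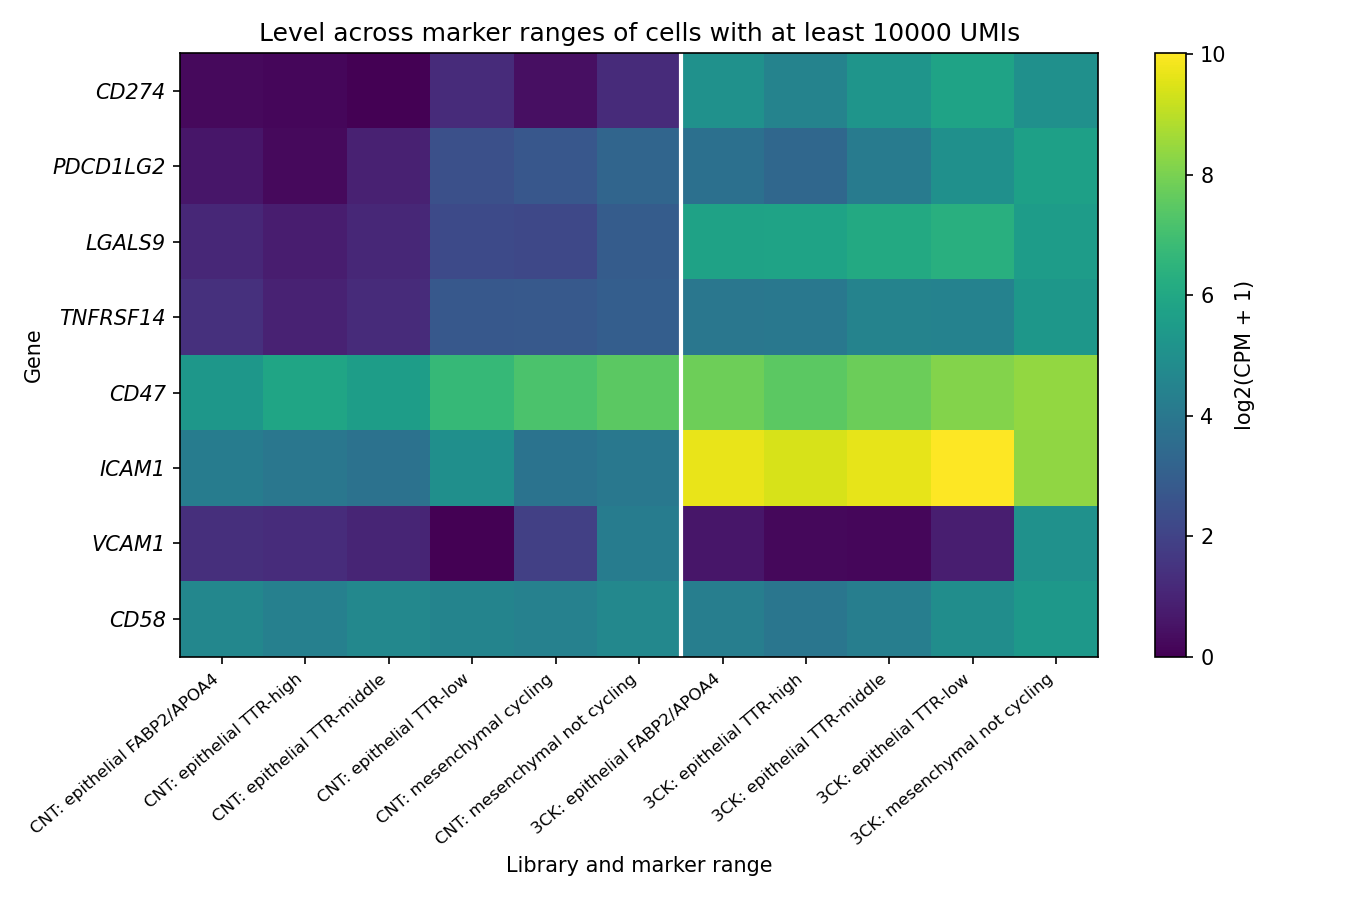
Level of each gene as log2(CPM + 1) in 6 marker ranges of CNT (left of the white line) and 5 of 3CK (right of it). ICAM1 is highest in the TTR-low epithelial range of 3CK, at 1036 CPM. Among the ranges shown, VCAM1 is above 10 CPM only in non-cycling mesenchymal cells, at 17.6 CPM untreated and 32.4 CPM treated. Cycling mesenchymal cells of 3CK were too few to be shown.

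The genes whose pattern over these 11 ranges was most like that of a member were found by Pearson correlation of log2(CPM + 1) among 12675 genes. The ranges share 2 libraries, so the likeness includes the difference between them. For CD274 they were OPTN (0.997), CMPK2 (0.995) and LAP3 (0.993), for LGALS9 PML, IRF1 and TYMP (0.995 to 0.993), and for PDCD1LG2 BISPR, IRF9 and ATF5 (0.988 to 0.985). ICAM1 was most like EXOC3L1, BATF2 and TAPBP (0.996 to 0.993), TNFRSF14 like IFIT5, APOL3 and IRF9 (0.987 to 0.981) and CD47 like SNX10, ITPRIP and BIK (0.987 to 0.980). VCAM1 was most like ANGPTL4, CLIP3 and ADAMDEC1 (0.965 to 0.957) and CD58 like RYR3, NRG1 and SLC11A2 (0.914 to 0.908).

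Genes around the members were read from 7 lists, over all kept cells and beside the 6.96% of genes higher and 11.3% lower by 2-fold. For values within epithelial cells these shares were 8.48% and 12.1%, with a median log2 ratio over all genes tested of 0.01. Within mesenchymal cells they were 6.05% and 16.7%, with a median of -0.21. Of 18 genes of the IFN-γ pathway and of PD-L1 regulation, 9 were at least 2-fold higher in 3CK and 0 lower, with a median log2 ratio of 0.99. The count was 9 of 18 in epithelial cells (median 1.09) and 4 of 17 in mesenchymal cells (median 0.19), with 0 lower in either. IRF1, the transcription factor of that pathway, had the largest ratio (23.3 and 376 CPM, 4.01), whereas CMTM4, which with CMTM6 holds PD-L1 at the surface, had the smallest (35.7 and 27.1 CPM, -0.40). Of 14 NF-κB pathway genes, 4 were higher and 0 lower (median 0.74; 5 of 14 in epithelial and 6 of 14 in mesenchymal cells), led by BIRC3 (6.59 and 148 CPM, 4.49), and NFKBIA, the inhibitor with the highest level, stood at 47.7 and 159 CPM (1.74). The kinase gene CHUK had the smallest ratio (-0.09, -0.21 to 0.03). Of 5 genes around CD47 none passed 2-fold in either direction, its receptor SIRPA being at 15.5 and 20.3 CPM (0.39), the chaperone CALR at 486 and 523 CPM and the CD47 ligand THBS1 at 76.8 and 40.8 CPM (-0.91). Within the classes THBS1 differed less, with -0.05 (-0.19 to 0.10) in epithelial cells, at 11.1 and 10.7 CPM, and -0.33 (-0.39 to -0.26) in mesenchymal cells, at 329.5 and 263 CPM.

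Of 23 further checkpoint and costimulatory ligands, 20 were tested, 6 were higher and 3 lower (median 0.33). CD40, a costimulatory TNF receptor family member, had the largest ratio (3.40 and 140 CPM, 5.37) and VTCN1 (B7-H4) the smallest (2.38 and 0.523 CPM, -2.19). The most abundant, LGALS3, stood at 1822 and 1475 CPM (-0.31). The B7 ligands CD80 (31 and 16 UMIs) and CD86 (47 and 38 UMIs) were nearly undetected in both libraries, and were named after their values were seen. Of 22 other adhesion molecules, 18 were tested, 4 were higher and 4 lower (median -0.19), from CX3CL1, a membrane-bound chemokine (0.913 and 38.7 CPM, 5.40), to JAM2 (-1.82), with CD99 the most abundant (416 and 311 CPM, -0.42). Of 12 other galectins, 6 were tested, 0 were higher and 3 lower (median -0.71, or -0.87 within epithelial and 0.41 within mesenchymal cells, where 4 were tested and 1 was lower), the largest ratio being that of LGALS8 (0.95) and the smallest that of LGALS2 (213 and 39.2 CPM, -2.44), with LGALS3 again the most abundant, beside 4.66 for LGALS9. Of 16 receptors and other binding partners of the members, 8 were tested, 3 were higher and 1 lower (median 0.69). LTA, which binds HVEM, had the largest ratio (0.206 and 3.24 CPM, 3.98), the VLA-4 chain ITGA4 the smallest (2.04 and 0.294 CPM, -2.80), and the integrin chain ITGB1 the highest level (348 and 410 CPM, 0.24). PDCD1, which encodes PD-1, was nearly undetected (31 and 20 UMIs), and was named after its values were seen.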

How the data were processed

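The values the authors deposited are raw UMI counts for each gene in each barcode. Cell Ranger 7.1.0 made them, per the file headers, with the build GRCh38, per the submitters' processing notes. Neither the annotation nor the handling of intronic reads is stated there or in the labels. About 8300 cells were loaded per library with the 3' v3.1 chemistry, per the labels, so a UMI marks a transcript's 3' end, and isoforms are not separated.

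Barcodes with at least 500 genes and at most 20% mitochondrial UMIs were kept, and the highest Scrublet scores (scanpy 1.11.5, Python 3.11.15) were removed at 0.8% per 1000 barcodes, 52 in CNT and 16 in 3CK. Sums carry exact Poisson intervals, ratios the exact binomial interval of the share of both counts, and shares Clopper-Pearson intervals. A sum of 0 was set to 3 UMIs, and 3 UMIs are 0.0295 CPM in CNT and 0.0327 CPM in 3CK. Past 2-fold stands in for a call, since no test was possible with 1 library per group. The ratio step was tested on simulated data. Alternatives used edgeR 4.0.16 (TMM) and DESeq2 1.42.0 (size factors), other filters, classes, weights and thinning depths.

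The members, lists and ranges were chosen with earlier results of these data known. Named besides the members were, in each list, the genes with the largest and smallest ratio and the highest CPM, and the 3 genes most like each member.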

Additional observations from a re-analysis of the deposited data

Results flagged for a closer look

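For 2 genes the difference between 3CK and CNT had opposite signs in the classes, with counting intervals on opposite sides of 0. VCAM1 had a log2 ratio of -2.18 in epithelial and 0.99 in mesenchymal cells, and CD58 a log2 ratio of -0.22 in epithelial and 0.78 in mesenchymal cells. With 1 library per group the difference between the classes was not tested. Each gene kept its sign in 1 class only when the weighting changed: with equal weight for each cell, the mesenchymal value of VCAM1 was -0.17 and the epithelial value of CD58 was 0.14, while VCAM1 stayed lower in epithelial cells (-1.64) and CD58 higher in mesenchymal cells (0.70).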

How the results depend on the processing

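The number of the 8 genes at least 2-fold higher or lower was recomputed under each alternative in 5 comparisons, and 75 such counts stayed within 1.5 times the value reported while 3 did not. These were the genes at least 2-fold lower over all kept barcodes, 0 as reported and 1 (VCAM1, at -1.46) with equal weight per cell, and the genes at least 2-fold higher in mesenchymal than in epithelial cells of 3CK, 4 as reported and 2 with TMM factors and 2 with median-of-ratios size factors. The ratio of CD274 between classes in CNT reversed, to -0.85, with equal weight per cell, and the cause was not tested. The other values were ratios and shares of single genes and counts of genes in the lists. Of these, 272 stayed within their limit and 115 did not. The limit was the counting interval for ratios and shares, and 1.5 times the value reported for counts. Leaving out the cell with the most UMIs of a gene was chosen after seeing the data. No paired analysis was possible because each group holds 1 library, and no replicate could be left out. Depth limits CD274 in CNT most, which rests on 46 UMIs.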
